A study of Mus musculus with 8 samples.

Results

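Expression of 9 genes of epithelial cell adhesion and tight junctions was followed in mouse pancreatic buds at e12.5. The genes were Cdh1, Epcam, Cldn3, Cldn4, Cldn6, Cldn7, Ocln, Tjp3 and Muc1, chosen by name with earlier results of these data known. All 9 were measured among 19938 genes with a singly named probe set. Each was represented by 1 probe set. Of the fresh buds, 1 RNA pool held buds of 3 embryos carrying Pdx1-tTA and TET-VEGF, called VEGF here. The other came from 3 littermates with Pdx1-tTA but no TET-VEGF, called control. In both, the Pdx1 promoter, active in the pancreatic epithelium, drives the transactivator tTA. The TET-VEGF transgene, which the transactivator drives, was carried by the VEGF buds alone. Explants came from wild type buds isolated at e12.5 and cultured for 2 days with VEGFR2i, an inhibitor of VEGF receptor 2, or with vehicle, 5 explants in each pool. Each of the 4 pools was hybridized to 2 arrays, the second being a technical repeat, so that every condition was 1 pool of RNA and no test of a condition was possible.

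Epithelial cells of the bud hold together through adherens junctions, built on cadherins tied to the actin skeleton by catenins. Tight junctions lie closer to the lumen, where claudins form the sealing strands and scaffold proteins of the cell interior anchor them. In the early pancreas both junctions frame the small lumens from which the branched epithelial tree arises. The surrounding mesenchyme and the blood vessels use other cadherins and claudins, so the genes followed here mainly mark the epithelium in a mixed tissue. In such bulk samples, fewer epithelial cells and less RNA per epithelial cell cannot be told apart.

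Levels are log2 expression, and a difference is that between the means of 2 pools, followed in brackets by its range over the 4 pairs of arrays. A gene was called only if its pool means were 1.5-fold or more apart, which is 0.58 in log2, and the arrays of the pools compared did not overlap. The 2 arrays of a pool correlated at 0.997 to 0.998 over all probe sets. Among the 9 genes the widest gap between arrays of a pool was 0.22, for Cldn3 in the VEGF pool. Endothelial genes set the explants against their labels: the cadherin of vessels, Cdh5, was at 8.66 in the explants labelled VEGFR2i, and 4.56 in those labelled vehicle, although the inhibitor targets a receptor of endothelial cells. Directions in the explants follow the labels as they stand.

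All 9 genes had the same order of pools, as the plot of levels by array shows. The VEGF pool was lowest, the control pool next, then the explant pool labelled VEGFR2i, and the pool labelled vehicle was highest. Were the explant labels exchanged, the last places would be vehicle and then VEGFR2i. Neighbouring pools in that order did not overlap on their arrays for any of the 9, an order that 6.07% of all genes shared (1210 of 19938). The order was read from these same 9 genes, so that share does not test them. Buds and explants may have been normalized separately, so the step between them is less certain than the steps within each set. The pancreatic epithelium list held the order in 10 of 14 genes, and the lists of endothelium (16 genes), mesenchyme (14) and mesothelium (8) in 0.

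**Figure D1:**
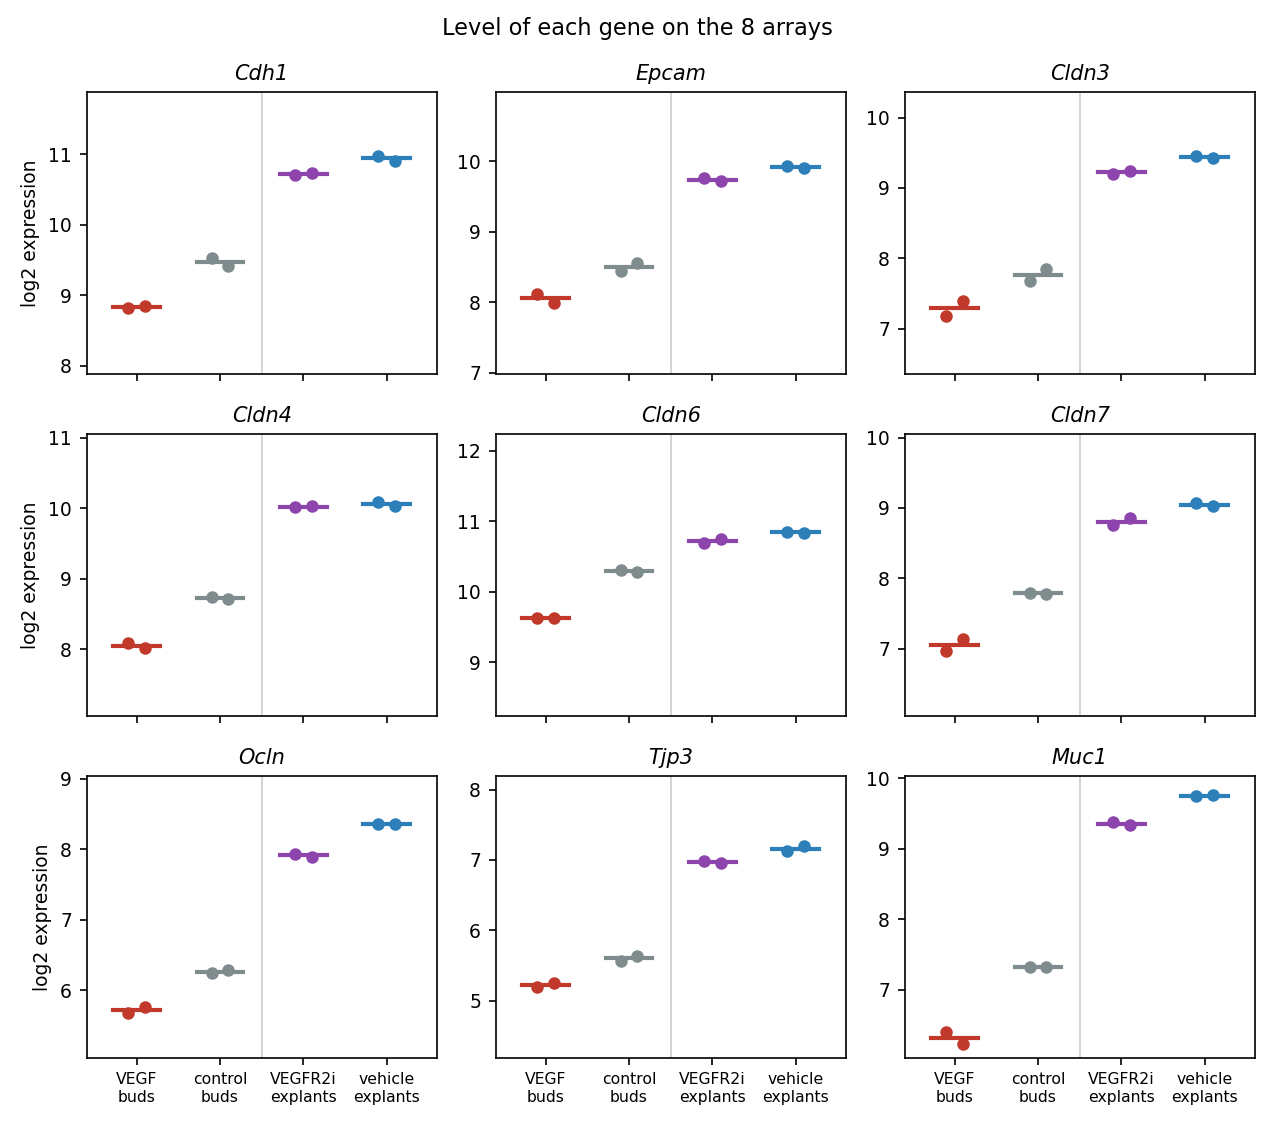
Log2 expression (vertical axis, 4 units high in each panel) of the 9 genes in the 4 pools; points are the 2 arrays of a pool and the bar is their mean. Each gene steps up from VEGF to control buds and again to the explants, and Muc1 spans the widest range, from 6.32 in the VEGF pool to 9.75 in the vehicle pool.

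The first comparison set the pool of buds carrying TET-VEGF against the pool of littermates without it. Of the 9, 5 were called lower in the VEGF pool (Muc1, Cldn7, Cldn4, Cldn6 and Cdh1) and none higher, against 0.933% of all genes called lower. The share was 1.7% among genes with a mean level of at least 5, which all 9 had. The 9 were chosen with earlier results of these data known, so these shares do not test them. The remaining 4, Ocln, Cldn3, Epcam and Tjp3, had negative differences short of the 1.5-fold size. For each of the 9 both VEGF arrays lay below both control arrays, as did those of 21.6% of all genes. The median difference was -0.64, a level 1.56-fold lower, while the median over all genes was 0.0031.

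Upstream sequence is shown for the called genes that have an entry in the RefSeq promoter table (build GRCm38.p6). Each run gives the 250 bases before the annotated start, 5′ to 3′ on the strand of the gene, and capitals mark the E-box CACCTG on either strand (CAGGTG on the other). That hexamer is bound by the Cdh1 repressors of the Zeb and Snail families. Cdh1 itself had no entry, so its upstream bases were not searched.
Muc1, chr3:89228806-89229055, plus strand: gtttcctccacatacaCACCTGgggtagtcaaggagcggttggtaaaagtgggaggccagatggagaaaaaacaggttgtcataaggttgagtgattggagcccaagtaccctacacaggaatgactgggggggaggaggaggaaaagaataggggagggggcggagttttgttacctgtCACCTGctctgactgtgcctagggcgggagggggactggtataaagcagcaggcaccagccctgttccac
Cldn7, chr11:69964529-69964778, plus strand: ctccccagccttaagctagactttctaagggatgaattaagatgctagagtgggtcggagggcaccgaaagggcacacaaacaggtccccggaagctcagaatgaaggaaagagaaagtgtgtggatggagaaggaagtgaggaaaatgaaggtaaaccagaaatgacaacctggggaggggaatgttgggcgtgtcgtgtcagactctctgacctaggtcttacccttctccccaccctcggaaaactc
Cldn4, chr5:134946935-134947184, minus strand: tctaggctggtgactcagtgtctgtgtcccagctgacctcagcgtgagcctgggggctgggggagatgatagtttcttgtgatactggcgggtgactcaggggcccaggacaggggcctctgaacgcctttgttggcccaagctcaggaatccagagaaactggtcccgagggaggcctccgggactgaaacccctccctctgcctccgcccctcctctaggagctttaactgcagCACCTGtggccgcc
Cldn6, chr17:23679115-23679364, plus strand: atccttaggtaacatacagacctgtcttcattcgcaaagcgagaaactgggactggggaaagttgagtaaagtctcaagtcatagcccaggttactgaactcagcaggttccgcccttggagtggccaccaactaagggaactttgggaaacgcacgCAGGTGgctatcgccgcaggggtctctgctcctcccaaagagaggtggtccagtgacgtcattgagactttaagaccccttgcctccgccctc

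Of 8 genes with such a window, 5 held the E-box (Epcam, Cldn4, Cldn6, Tjp3 and Muc1), as did 17.1% of 27025 windows of the same length, 1 per gene. Muc1 and Epcam held 2 each. Cldn7, Cldn3 and Ocln had no match within these bases. The GC box GGGCGG, searched on both strands as CCGCCC too, was present in 6 of the 8 and in 33.0% of all windows, and overlapped the E-box in none of the 8. The GC content of the windows ran from 43.2% for Tjp3 to 64.0% for Ocln. Only Tjp3 and Cldn7 (51.2%) lay below the median of 52.0% over all windows. The shares of all windows holding a motif were not matched for GC content. Matches are given as letters in a window and were not tested as sites.

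Muc1 encodes a mucin of the apical surface, which lines lumens. It read 6.40 and 6.23 on the VEGF arrays and 7.33 and 7.32 on the control arrays. After culture it read 9.38 and 9.34 in the explants labelled VEGFR2i, and 9.75 and 9.76 in those labelled vehicle. The VEGF arrays stood about a log2 unit below the controls with no overlap, and both explant pools stood well above either. The VEGF minus control difference was -1.005 [-1.09, -0.92], or 2.01-fold lower, and only 37 of 19938 genes had a more negative one.

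Among the adhesion molecules, Cdh1 encodes E-cadherin, the cadherin of epithelial adherens junctions. Its levels were 8.81 and 8.84 in the VEGF pool, 9.53 and 9.41 in the control pool, 10.70 and 10.74 in the explants labelled VEGFR2i, and 10.98 and 10.91 in those labelled vehicle. Its difference in the buds was -0.64 [-0.71, -0.57], or 1.56-fold lower. Epcam encodes a homophilic adhesion protein of the lateral membrane that associates with claudin-7. It was at 8.12 and 7.98 in the VEGF pool, 8.44 and 8.56 in the control pool, 9.76 and 9.72 in the explants labelled VEGFR2i, and 9.93 and 9.90 in those labelled vehicle. The Epcam arrays of the bud pools were apart as well, by -0.45 [-0.58, -0.32], a 1.37-fold lower level that was short of the size.

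The 4 claudins of the set form tight junction strands, and Cldn6 in particular is known from embryonic epithelia. Cldn7 was at 6.97 and 7.14 in the VEGF pool, 7.79 and 7.78 in the control pool, 8.76 and 8.85 in the explants labelled VEGFR2i, and 9.07 and 9.02 in those labelled vehicle. Its difference in the buds, -0.73 [-0.83, -0.64] or 1.66-fold lower, was the widest among the claudins of the set. Cldn4 read 8.09 and 8.01 on the VEGF arrays, 8.75 and 8.71 on the control arrays, 10.01 and 10.03 on those labelled VEGFR2i and 10.08 and 10.03 on those labelled vehicle. Its 2 bud pools were clearly apart, by -0.68 [-0.73, -0.62], whereas the explant pools nearly met.

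Cldn6 read 9.63 on both VEGF arrays, 10.30 and 10.29 on the control arrays, 10.70 and 10.75 on those labelled VEGFR2i and 10.85 and 10.84 on those labelled vehicle. Its bud difference of -0.66 [-0.67, -0.65] had the narrowest range of the 9. Cldn3 was at 7.18 and 7.40 in the VEGF pool, 7.67 and 7.84 in the control pool, 9.20 and 9.25 in the explants labelled VEGFR2i, and 9.45 and 9.42 in those labelled vehicle. Its bud arrays spread most, and its difference of -0.47 [-0.66, -0.27] was short of the size.

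Ocln encodes occludin, another membrane protein of the tight junction strand, and Tjp3 encodes a scaffold of the zonula occludens family that binds claudins from inside the cell. Ocln was at 5.68 and 5.76 in the VEGF pool, 6.24 and 6.28 in the control pool, 7.94 and 7.89 in the explants labelled VEGFR2i, and 8.36 and 8.35 in those labelled vehicle. Its bud difference was -0.54 [-0.60, -0.47]. Tjp3 read 5.20 and 5.25 on the VEGF arrays, 5.57 and 5.64 on the control arrays, 6.99 and 6.95 on those labelled VEGFR2i and 7.12 and 7.20 on those labelled vehicle. At -0.38 [-0.44, -0.32] it had the smallest bud difference of the 9, with no overlap between the pools.

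**Figure D2:**
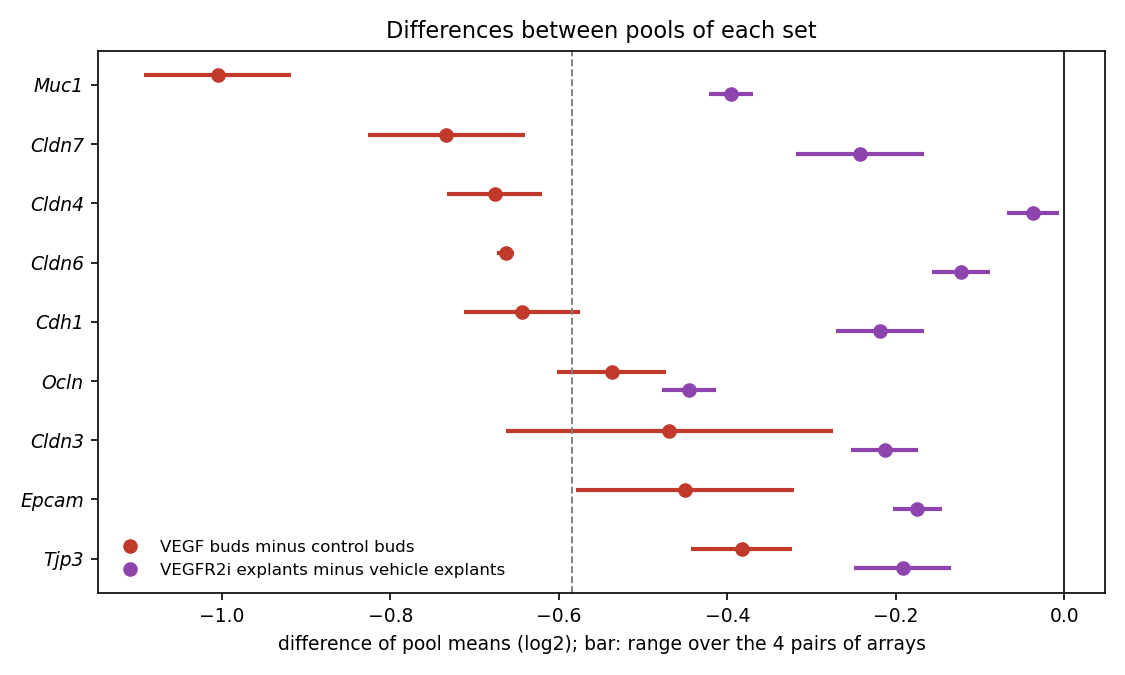
Difference of pool means in log2 units (horizontal axis) for each gene in the VEGF minus control buds (red) and the VEGFR2i minus vehicle explants (purple); points are differences, bars are their range over the 4 pairs of arrays and the dashed line marks a 1.5-fold lower level. With the labels as deposited all 18 points lie below 0 (with exchanged explant labels the 9 purple points would lie above it), and 5 of the red and none of the purple points lie beyond the dashed line.

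In the explants none of the 9 genes was called, against 0.371% of all genes called lower and 1.82% called higher in the pool labelled VEGFR2i. The differences were negative throughout, and would be positive throughout with the explant labels exchanged, with a median of -0.21, or 1.16-fold lower, and a median over all genes near 0. For each of the 9 both arrays of that pool lay below both arrays of the pool labelled vehicle, which held for 25.0% of all genes. Ocln differed most, by -0.45 [-0.48, -0.41], and Muc1 followed with -0.40 [-0.42, -0.37]. These levels were 1.36-fold and 1.32-fold lower, short of the size. With a size limit of 25% in place of 50% they were the 2 genes called, against 1.83% of all genes called lower.

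Cldn7 differed by -0.24 [-0.32, -0.17] between the explant pools and Cdh1 by -0.22 [-0.27, -0.17]. Cldn3 and Tjp3, with -0.21 and -0.19, and Epcam, with -0.17, were close to these. Cldn6 differed by -0.12 [-0.16, -0.09]. Cldn4 was nearly level, at -0.04 [-0.07, -0.01], although it was among the genes called lower in the buds. The bud and explant comparisons share no arrays, and the difference between them was not tested.

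Genes that neighbour members on the chromosome gave their own values. Cldn3 and Cldn4 are adjacent protein-coding genes in the RefSeq order, and Cldn6 lies next to Cldn9, Ocln next to Marveld2, and Cdh1 next to Cdh3. Cldn9 was called lower in the VEGF pool like its neighbour Cldn6, by -0.60 [-0.77, -0.43]. Its call ended without VEGF array 1 (-0.53) or control array 2 (-0.50). Marveld2, which encodes tricellulin of the corners where 3 cells meet, was called lower by -0.66 [-0.74, -0.58], while its neighbour Ocln was short of the size. Cdh3, the gene of P-cadherin, stood at 8.58 and 8.54 in the VEGF and control pools, a difference of 0.04, beside the -0.64 of Cdh1. In the explants Cldn9 differed by 0.29, Marveld2 by -0.24 and Cdh3 by 0.14, none of which reached the size. Cdh3 was picked here for its position and after its values were seen.

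Other genes of the junctions were read from lists chosen by function, with earlier results of these data known. Against shares of 0.933% and 0.552% of all genes, 3 of 21 other tight junction genes were called lower in the VEGF pool and none higher. Their median difference was -0.10. The median level of that list was 5.15 and 5.79 in the VEGF and control pools, below the 7.29 and 7.79 of the 9 genes. Cldn10 stood lowest at -0.74 [-0.82, -0.66], ahead of Marveld2 and Cldn9. In the explants 1 of the 21 was called, against 0.371% of all genes called lower and 1.82% higher. It was Cldn18, a claudin of stomach and lung, lower at 3.82 against 4.41, and the median of the list was -0.10. Without array 1 of the pool labelled VEGFR2i (-0.54) or array 2 of the other (-0.56) Cldn18 was not called. The vascular claudin Cldn5, counted with the endothelial list, was at 7.91 in the VEGF and 7.45 in the control pool, opposite in sign to the claudins of the set. It was called higher in the pool labelled VEGFR2i, at 7.03 against 4.87, and was chosen for mention after its values were seen.

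Of all genes 0.933% were called lower and 0.552% higher in the buds, and 0.371% and 1.82% in the explants. At such shares, a lack of calls does not set a short list apart from all genes. None of 16 other adherens junction genes was called in either comparison, with medians of 0.04 in the buds and 0.03 in the explants. Vcl, the actin linker vinculin, was their most different gene in both, by 0.33 [0.25, 0.41] and 0.29 [0.29, 0.29]. Beta-catenin, Ctnnb1, which also serves cadherins of other cell types, was at 11.18 and 11.17 in the VEGF and control pools, and N-cadherin, Cdh2, at 9.35 and 9.18. These were also named after their values were seen. Among 12 polarity genes none was called, and their medians were -0.11 and -0.10. The epithelial polarity protein Llgl2 had the widest bud difference of that list at -0.55 [-0.62, -0.49], and Mpdz the widest explant one at 0.36 [0.28, 0.44].

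Desmosomes, which tie keratin filaments of neighbouring cells together, had no call among 9 genes in either comparison. At the shares of all genes given above, that does not set these genes apart. Their medians were -0.14 in the buds and -0.29 in the explants, where all 9 differences were negative. In the buds their median levels were low, at 4.87 in the VEGF and 4.97 in the control pool. Desmoplakin, Dsp, stood lowest in the buds at -0.43 [-0.52, -0.35] and plakophilin 2, Pkp2, lowest in the explants at -0.38 [-0.47, -0.30].

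The list of apical mucins, surface proteases and their inhibitors had 3 of 12 members called lower in the VEGF pool and 1 called higher. The shares of all genes were 0.933% and 0.552%. Lower were Spint1 at -0.76 [-0.90, -0.62], Spint2 at -0.61 [-0.65, -0.56] and Prss8 at -0.70 [-0.95, -0.46]. The call of Spint2 ended without VEGF array 1 or control array 1 (-0.58 in both), and that of Prss8 without VEGF array 2 (-0.58) or control array 2 (-0.57). Prss8 encodes a membrane-anchored protease and Spint1 and Spint2 are inhibitors of this class, and Spint2 is known to guard Epcam and claudin-7 from cleavage by matriptase. Podxl, a sialomucin that endothelium and mesothelium also express, was the higher one, at 9.40 against 8.74. No gene of that list was called in the explants, where Prss8 differed most, by -0.40 [-0.45, -0.35].

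Regulators of epithelial genes were read from a pair of lists. Of 15 factors known to maintain epithelial junction genes, Esrp1 (-0.78), Esrp2 (-0.64), Grhl2 (-0.61) and Elf3 (-0.60) were called lower in the VEGF pool, and none was higher. Of all genes 0.933% were called lower. The call of Elf3 ended without control array 1 (-0.35) or VEGF array 2 (-0.58), and that of Grhl2 without VEGF array 2 (-0.57). Esrp1 and Esrp2 are epithelial splicing factors, and Grhl2 is an activator of Cdh1 and Cldn4. The list's median difference was -0.10, at median levels of 4.05 and 4.64 in the VEGF and control pools. In the explants none of the 15 was called, all differences were negative, and Elf3 was lowest at -0.55 [-0.66, -0.43].

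Of 7 known repressors of Cdh1, none was called in the buds, where the median was 0.04 and Twist1 differed most, by 0.30 [0.23, 0.36]. In the pool labelled VEGFR2i 3 were called higher, against 1.82% of all genes, with a median of 0.49 over the 7. Snai1 was at 7.27 against 6.58, Zeb1 at 8.45 against 7.77 and Zeb2 at 8.33 against 7.66. Mesenchymal and endothelial cells express these factors too, and the mean level of the 14 mesenchymal genes was 9.08 on both arrays of that pool against 8.79 and 8.74 in the pool labelled vehicle. Twist1 and Twist2 are in both lists, and the 12 mesenchymal genes without them were at 9.56 and 9.57 against 9.27 and 9.22. The 16 endothelial genes had mean levels of 6.86 and 6.84 against 4.66 and 4.60. The part of these cells in the repressor values was not tested.

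**Figure D3:**
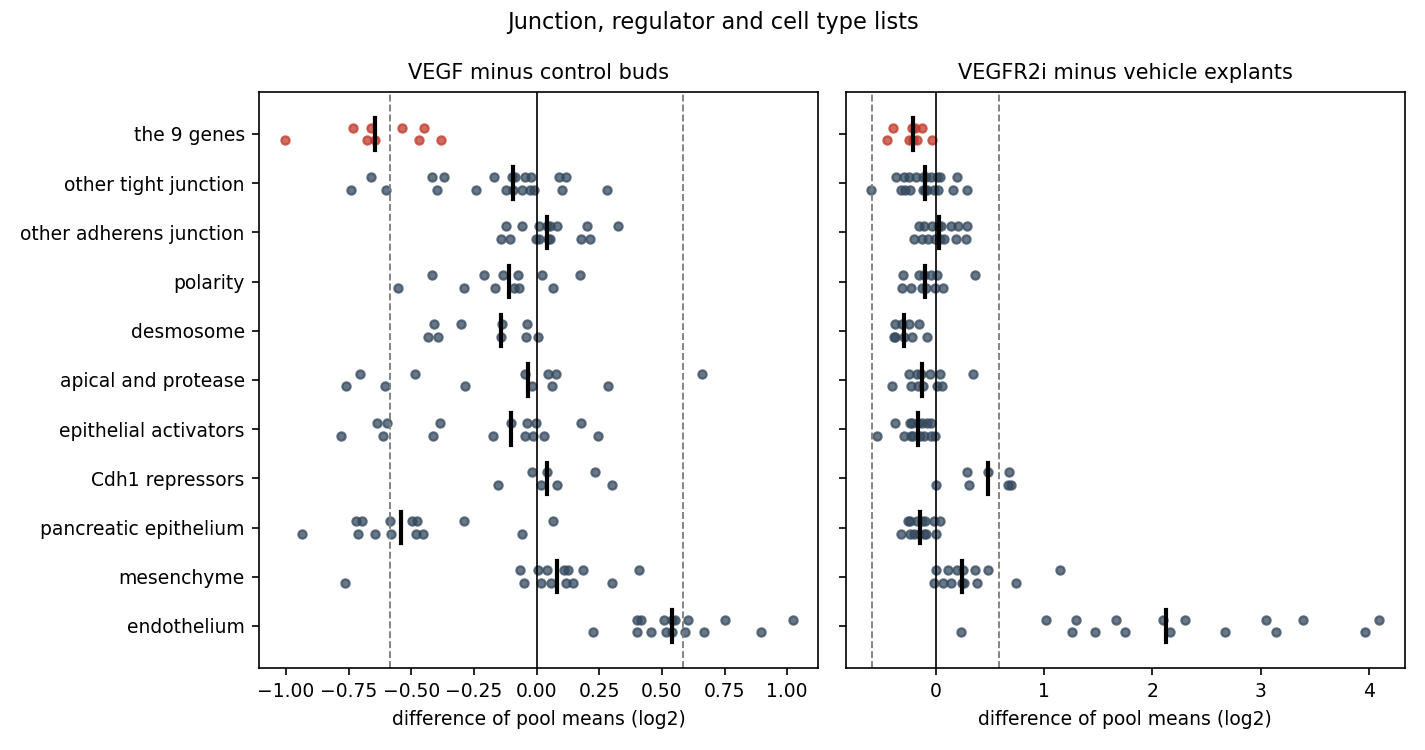
Differences of pool means in log2 units (horizontal axes, on different scales) for the 9 genes (red) and the members of 10 other lists (dark points), in the buds (left) and explants (right); black bars are list medians and dashed lines mark 1.5-fold. In the buds the 9 genes, with a median of -0.64, lie beside the pancreatic epithelium list, with -0.54, and the endothelium list lies on the other side of 0 with 0.54.

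Of 14 epithelial markers outside the junction, 6 were called lower in the VEGF pool and none higher, against 0.933% of all genes called lower. Their median was -0.54, with negative differences in 13. Nkx6-1 (-0.94), Prox1 (-0.72) and Hnf4a (-0.71), all transcription factors of the early pancreas, differed most. The call of Hnf4a ended without VEGF array 2 (-0.55) or control array 2 (-0.56). The mean level of the 14 was 6.98 and 6.89 on the VEGF arrays and 7.45 and 7.43 on the control arrays. Taken relative to this list's median, the 9 genes had a median of -0.10, ranging from -0.47 for Muc1 to 0.16 for Tjp3, and none reached 1.5-fold. Relative to it Epcam, Cldn3, Ocln and Tjp3 had positive values. In the explants the same list had a median of -0.14 and no call, and the 9 genes stood at a median of -0.07 relative to it, with Ocln at -0.30 and Muc1 at -0.26. There Cldn4 and Cldn6 were positive, at 0.10 and 0.02.

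Lists of other cell types held genes called higher in the VEGF pool. All 16 endothelial genes had positive differences there, 6 of them called higher against 0.552% of all genes, and their mean level was 8.06 and 8.02 on its arrays against 7.49 and 7.47 in the control pool. Cd34 (1.02), Flt1 (0.90) and Kdr (0.75) differed most. Of 9 erythroid genes 5 were called higher, led by Hbb-bh1 (1.72), Slc4a1 (1.37) and Rhag (1.13), with mean levels of 7.12 on both VEGF arrays and 6.29 and 6.30 on the control arrays. Of 8 mesothelial genes 5 were called higher, among them Gpm6a (0.95), Upk1b (0.86) and Bnc1 (0.76), and the list's mean level was 6.16 and 6.14 against 5.60 and 5.63. The part of these cells in the lower junction genes was not tested.

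Of 14 mesenchymal genes in the buds, 1 (Prrx1, -0.77) was called lower and the median was 0.08, and none of 10 leukocyte genes was called, with a median of 0.10. Endocrine genes, which mark a lineage arising from the same epithelium, were called lower in 9 of 11, against 0.933% of all genes. Their median was -1.58, and Neurog3 (-2.63) was lowest. Acinar genes were called lower in 5 of 11 and higher in none, led by Ctrb1 (-2.07), Clps (-1.87) and Pnliprp1 (-1.72). Their median difference was -0.16, at median levels of 4.03 and 4.14 in the VEGF and control pools. Those levels were near the medians of all probe sets on the bud arrays, 4.08 to 4.12. Of 12 genes of liver, stomach and intestine, 3 were called higher, led by Alb (2.37), and 1 lower (Ttr, -1.11).

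Between the explants, the pool labelled VEGFR2i had 15 of 16 endothelial genes called higher, against 1.82% of all genes. Cdh5 (4.10), Cd93 (3.96) and Pecam1 (3.39) differed most. Of 10 leukocyte genes 9 were called higher, led by Laptm5 (1.35), Cybb (1.31) and Mrc1 (1.28). Of the mesenchymal genes Pdgfrb (1.15) and Postn (0.75) were called higher, and of the erythroid genes Hbb-y (2.23) and Hba-x (1.62). The small negative differences of the 9 junction genes stood beside these higher levels, and the part of those cells in them was not tested.

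In the same explants none of 11 endocrine and none of 8 mesothelial genes was called, with medians of -0.05 and 0.08. Of 11 acinar genes 6 were called lower, with a median of -0.72, and of 12 genes of adjoining organs 1 was (Tff2, -0.65). The share of all genes called lower was 0.371%. The 14 epithelial markers ranged only from -0.32, for Rab25, to 0.04.

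A further comparison placed each explant pool against the control buds. They differ in culture, in age and in genotype and may have been normalized separately, so that these cannot be told apart. Of the 9 genes, 8 were called higher in the pool labelled vehicle than in the control buds and 8 in the pool labelled VEGFR2i, all but Cldn6 in both. In these comparisons 17.9% and 17.7% of all genes were called higher, and 25.6% and 25.9% of genes with a mean level of at least 5. The comparisons share the control arrays. The median over all genes was 0.17 in both, a shift that quantile normalization of the 8 arrays brought to 0.0024, and the values that follow include it. After that normalization 8 of the 9 were still called in each, against 9.88% and 9.21% of all genes.

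The median of the 9 genes was 1.47 above the control buds in the explants labelled vehicle, and 1.29 in those labelled VEGFR2i. Muc1 stood highest, by 2.43 [2.42, 2.44] or 5.39-fold and by 2.04 [2.01, 2.06] or 4.10-fold. Ocln followed with 2.10 and 1.66. Cldn3, Tjp3, Cdh1, Epcam, Cldn4 and Cldn7 lay between 1.26 and 1.68 in the pool labelled vehicle and between 1.02 and 1.46 in the pool labelled VEGFR2i.

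Cldn6 differed least from the control buds, by 0.55 [0.53, 0.57] and 0.43 [0.39, 0.46], at levels of 10.85 and 10.72 against 10.30. After quantile normalization its differences were 0.24 and 0.13. The 14 epithelial markers had medians of 1.48 and 1.32 in the same comparisons, and 13 of 14 were called higher in each. Relative to those medians Cldn6 stood at -0.93 and -0.90, Muc1 at 0.95 and 0.71, and Ocln at 0.62 and 0.33. Cldn3, at 0.20 and 0.14, and Tjp3, at 0.08 and 0.04, were also above them. The medians of the 9 genes relative to the list were -0.0053 and -0.0288.

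**Figure D4:**
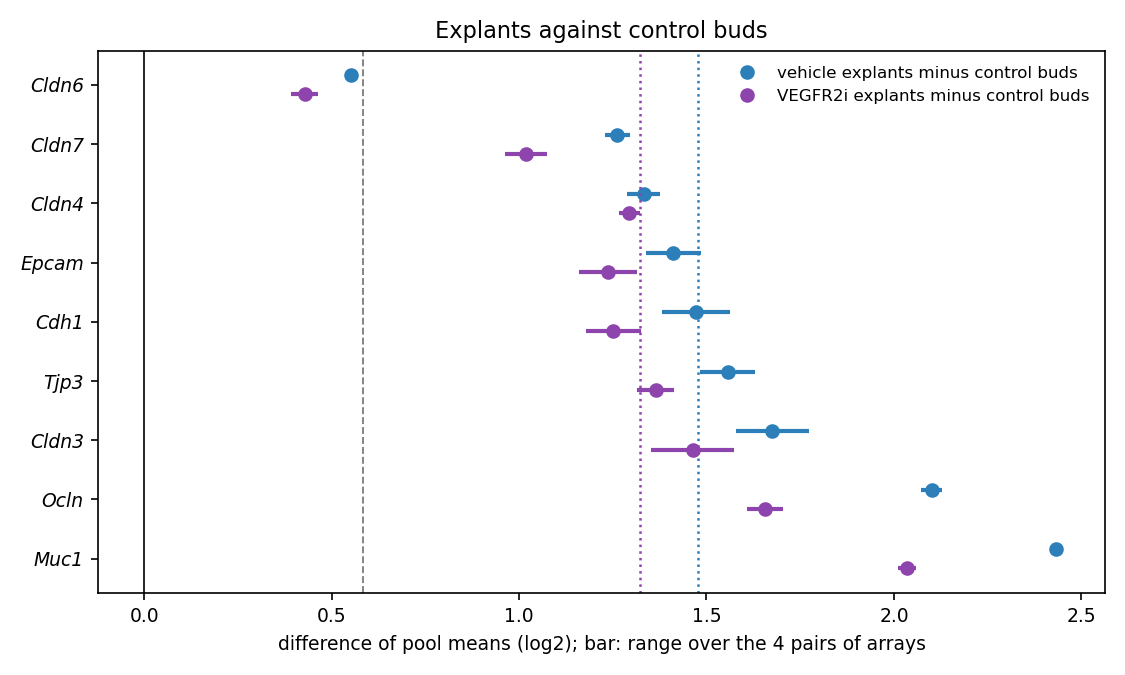
Difference from the control buds in log2 units (horizontal axis) for the pools labelled vehicle (blue) and VEGFR2i (purple); points are differences of pool means, bars their range over the 4 pairs of arrays, the dashed line marks 1.5-fold and dotted lines the medians of 14 epithelial markers in the same colours. Cldn6 lies left of the dashed line in both pools, while Muc1, Ocln, Cldn3 and Tjp3 lie right of the dotted line of their colour.

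Genes outside the set with the most similar profile were found by the root mean square distance between a gene's 4 pool means, centred on their own mean, and the median centred profile of the 9 genes. The nearest 8 were Myo5c (a distance of 0.01), Otud3 (0.03), Homer2 (0.03), Nedd4l (0.04), Slc16a12 (0.04), Capsl (0.04), Map2 (0.04) and Eps8l2 (0.04). Myo5c, which encodes an unconventional myosin of epithelial cells, was at 5.53, 6.12, 7.41 and 7.61 in the VEGF, control, VEGFR2i and vehicle pools. Of the 9 genes themselves Cdh1 lay nearest to the median profile, at 0.02, and Cldn6 (0.43) and Muc1 (0.56) farthest from it. This ordering rests on 4 pools and carries no test. The median profile was made from the same 9 genes, so their own distances are not independent of it. Its widest step, from -0.55 in the control pool to 0.73 in the pool labelled VEGFR2i, is the less certain one between buds and explants.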

How the data were processed

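RNA of 4 pools of pancreatic buds was measured on 8 mouse gene 1.0 ST arrays, 2 per pool. The deposited table holds a log2 level for each probe set, which the authors obtained by RMA (robust multi-array averaging) with Partek Genomic Suite 6.5, according to the design text of the series. No source used here says whether buds and explants went through RMA together. The method can mask a shift in most genes at once and shrinks the differences of dim probe sets.

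Of 35399 probe sets, 21789 had exactly 1 symbol in the platform annotation, 1621 had several and 11989 had none there. The probe set with the highest mean stood for each of 19938 genes. Pools were compared with the size rule in Python 3.11.15 (pandas 2.3.3, numpy 2.4.6), which was tested on simulated data. The number of arrays limits the precision. With 1 pool per condition no p-value for a condition was computed; the methods' t-test and limma 3.58.1 on arrays of the same pools, used as alternatives, measure hybridization error only. Other alternatives were other fold sizes, the mean of all probe sets, other normalizations, a minimum level of 5, each array left out and differences relative to epithelial markers.

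The 9 genes and 16 lists were chosen with earlier results of these data known. Of 205 list entries 197 were measured; the other 8 were not analysed here. Named genes were all 9 members, up to 4 called genes per junction or regulator list and comparison or else its most different gene, up to 3 most different genes per cell type list, and the 8 most similar profiles; others are marked as picked after their values were seen. Promoter windows come from RefSeq, 1 per gene, at its most upstream start.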

Additional observations from a re-analysis of the deposited data

How the results depend on the processing

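The 5 genes called lower in the VEGF pool were also 5 with quantile normalization and median centring. The same held for the methods' t-test without adjustment, limma, and limma with the array number as a replicate block. The mean of all probe sets and the minimum level of 5 could not change the 9 genes in any comparison. Each of the 9 had 1 probe set and a mean above 5. After Benjamini-Hochberg adjustment the methods' t-test called 0 of the 9 and 0 genes in all. Without adjustment it called 271 genes, and limma called 294. The count of the 9 was 1 at 2-fold (Muc1), where 0.191% of all genes were called lower. It was 9 with a limit of 25% in place of 50%, against 2.76% of all genes, and 0 relative to the epithelial markers. With single arrays left out it stayed at 5, and the median lay between -0.67 and -0.59. For the explants the count was 0 under every alternative run except the limit of 25%. There it was 2, against 1.83% of all genes called lower. The median lay between -0.24 and -0.19 with single arrays left out. Against the control buds 9 genes were called in both pools at the limit of 25%. The shares of all genes there were 33.5% (labelled vehicle) and 34.5% (labelled VEGFR2i). Every other alternative run called 8, except relative to the epithelial markers. Relative to those, 3 were called for the pool labelled vehicle (Muc1 and Ocln higher, Cldn6 lower) and 2 for the pool labelled VEGFR2i (Muc1 higher, Cldn6 lower). Left-out arrays gave 8 throughout and medians of 1.44 to 1.52 and of 1.29 to 1.32 (labelled vehicle and VEGFR2i).

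Quantile normalization gave medians of 1.16 and 0.96 and median centring 1.26 and 1.10 against the control buds. Relative to the epithelial markers the medians were -0.10 for VEGF, -0.0729 between the explants, and -0.0053 and -0.0288 against the control buds, where the sign turned; by construction this removes what the 9 genes share with those markers. The array numbers do not pair the pools, since each pool's second array repeats its own RNA, and the replicate block left the counts at 5, 0, 8 and 8. Each of the 9 genes kept a negative difference in both comparisons under 8 settings. These were the reported one, 3 of probe sets and scaling, and 4 with an array left out. Among the 3, the mean of all probe sets repeats the reported values. Relative to the epithelial markers, 4 of the 9 (Epcam, Cldn3, Ocln and Tjp3) turned positive in the buds and 2 (Cldn4 and Cldn6) in the explants. The share of all genes called higher against the control buds was 17.9% and 17.7% as reported and 9.88% and 9.21% after quantile normalization. Arrays of a pool repeat 1 RNA, so no setting measures the spread between embryos.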
